A study of Mus musculus with 6 samples.

Results

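The TNF superfamily genes followed here are *Tnfrsf4*, *Tnfrsf9*, *Tnfrsf18*, *Tnfrsf25*, *Tnfrsf1a*, *Tnfrsf1b*, *Tnfsf4*, *Tnfsf8*, *Tnfsf11* and *Tnfsf14*, 6 receptors and 4 ligands. They were chosen by name, and all 10 had a value among the 16381 genes of the table. Bulk RNA sequencing was done on group 2 innate lymphoid cells (ILC2s), sorted from lungs of wild-type BALB/c mice after intranasal IL-33 at 0.5 µg per day for 3 days, so the cells of both groups were activated (aILC2s). The cells were sorted as live CD45+, lineage-negative, ST2+ and CD127+, and were then kept for 24 h in culture with melatonin (250 µM) or DMSO, the solvent, called vehicle. Each group held 3 samples, and no source says whether these came from separate animals, pools or wells, so the p-values measure the spread between these samples only. Mice were described as female and aged 6 to 8 weeks, of a strain that lacks melatonin of its own for genetic reasons.

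Ligands of this superfamily are mostly membrane proteins that act as trimers and cluster their receptors on a neighbouring cell. The receptors carry cysteine-rich repeats outside the cell, and inside it bind either TRAF adaptors, which lead to NF-κB and survival, or, through a death domain, TRADD and FADD. In ILC2s and T cells, receptors such as OX40 (*Tnfrsf4*), CD137 (*Tnfrsf9*), GITR (*Tnfrsf18*) and DR3 (*Tnfrsf25*) act as co-stimulators that add to cytokine and antigen signals.

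The values are normalized counts, the authors' estimated counts per gene divided by a size factor per sample. Depth ranged from 17056267 to 20511711 estimated counts. Of 10 ILC2 markers, all with a value, 6 fell with melatonin, 2 rose and 2 were not called by limma, where 24.7% of all genes tested fell and 24.5% rose. *Thy1* was at 356 to 421 normalized counts in vehicle and at 34.6 to 65.3 with melatonin (log2 fold change -2.88), *Klrg1* was at -2.16, *Areg* at -1.69, *Il7r*, which encodes the CD127 of the sort, at -1.06, *Id2* at -0.85 and *Il2ra* at -0.77. *Il1rl1*, which encodes ST2, rose by 0.63 and *Rora* by 0.64, while *Gata3* and *Ptprc* were at 0.07 and -0.04. Their sum was at 95087 to 99402 with melatonin and at 124281 to 129692 in vehicle. Libraries stood apart by sex-linked transcripts. The 4 Y-linked genes *Ddx3y*, *Eif2s3y*, *Kdm5d* and *Uty* together had between 2554 and 3253 estimated counts in melatonin replicate 1 and the vehicle samples, and 0 in melatonin replicates 2 and 3, where *Xist* was at 579 and 1091 normalized counts. Libraries with Y-linked transcripts go against the stated use of female mice, and in 2 of the 3 melatonin libraries this difference cannot be told apart from the treatment. Results are therefore also given for the libraries with Y-linked transcripts only, melatonin replicate 1 against the 3 vehicle samples. These are log2 fold changes without p-values, since the fit assumes the lone sample to vary like the vehicle samples. All 10 members lie on autosomes. The labels number the libraries of each group consecutively, with a gap between the groups, and only the vehicle labels carry an added suffix. What the suffix means is not stated. A batch that follows the labels and the treatment cannot be told apart either.

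Markers of other cell types moved with the treatment. Of 8 T cell markers 6 had a value, and their sum was between 5126 and 5559 normalized counts in vehicle and between 1750 and 2452 in melatonin, mostly from *Trbc2*. *Cd3e*, whose protein was a target of the sort's lineage cocktail, was at 192 to 226 in vehicle and at 39.2 to 117 with melatonin. *Trac* was at most at 13.1 and *Cd3d* at most at 14.9, and *Cd4* and *Cd8a* had no value here. The sum of the 4 NK and ILC1 markers was between 5802 and 7136 in vehicle and between 56.0 and 194 in melatonin, nearly all from *Gzma*. *Ncr1*, whose protein CD335 was in the lineage cocktail of the sort, was at 101 to 114 in vehicle and at most at 1.01 with melatonin. *Eomes* was never above 5.60 and *Klrb1c* never above 9.37. Of 8 myeloid markers 7 had a value, with sums of 1164 to 1374 in vehicle and 256 to 699 in melatonin, mostly from *Lyz2*. Of 6 epithelial and endothelial markers 5 had a value, with sums of 1943 to 3174 in vehicle and 1394 to 1546 in melatonin. They went opposite ways. *Epcam* rose from 667 ± 67.6 to 1097 ± 116, while *Pecam1* fell from 1040.3 ± 34.6 to 357 ± 54.3 and *Sftpc* from 222 ± 146 to 5.01 ± 1.80. *Scgb1a1* was at 95.2, 21.5 and 1045 in vehicle replicates 1, 2 and 3 and at most at 1.01 with melatonin, and *Krt8* at 4.67, 8.35 and 105 and at 0 with melatonin, both called lower. Of the B cell markers, *Cd79a* alone had a value, with at most 9.33. Of the mast cell and basophil markers, *Mcpt8* and *Cpa3* had values, with sums of 2.81 to 16.8 in vehicle and 1.87 to 36.2 in melatonin. The part of such cells in the results below was not tested.

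With melatonin, 7 of the 10 members changed past the threshold, an adjusted p under 0.05 in limma, fitted to log2(normalized count + 1). *Tnfrsf9* and *Tnfsf14* rose. *Tnfrsf4*, *Tnfrsf1a*, *Tnfrsf1b*, *Tnfsf8* and *Tnfsf11* fell, while *Tnfrsf18*, *Tnfrsf25* and *Tnfsf4* were not called. A large share of the transcriptome differed between the groups. Of the 14419 genes tested, 49.2% were called, 24.5% as higher and 24.7% as lower, and the members' 7 of 10 is to be read against that. The median log2 fold change of the members was -0.36, against -0.00 for all genes tested. In 9 of the 10 members the groups did not overlap, against 60.4% of all genes tested, where 30% were higher and 30.3% lower in every melatonin sample. Taken gene by gene, 3 against 3 samples allow no two-sided exact permutation p under 0.1, and these 9 members were at that p.

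**Figure D1:**
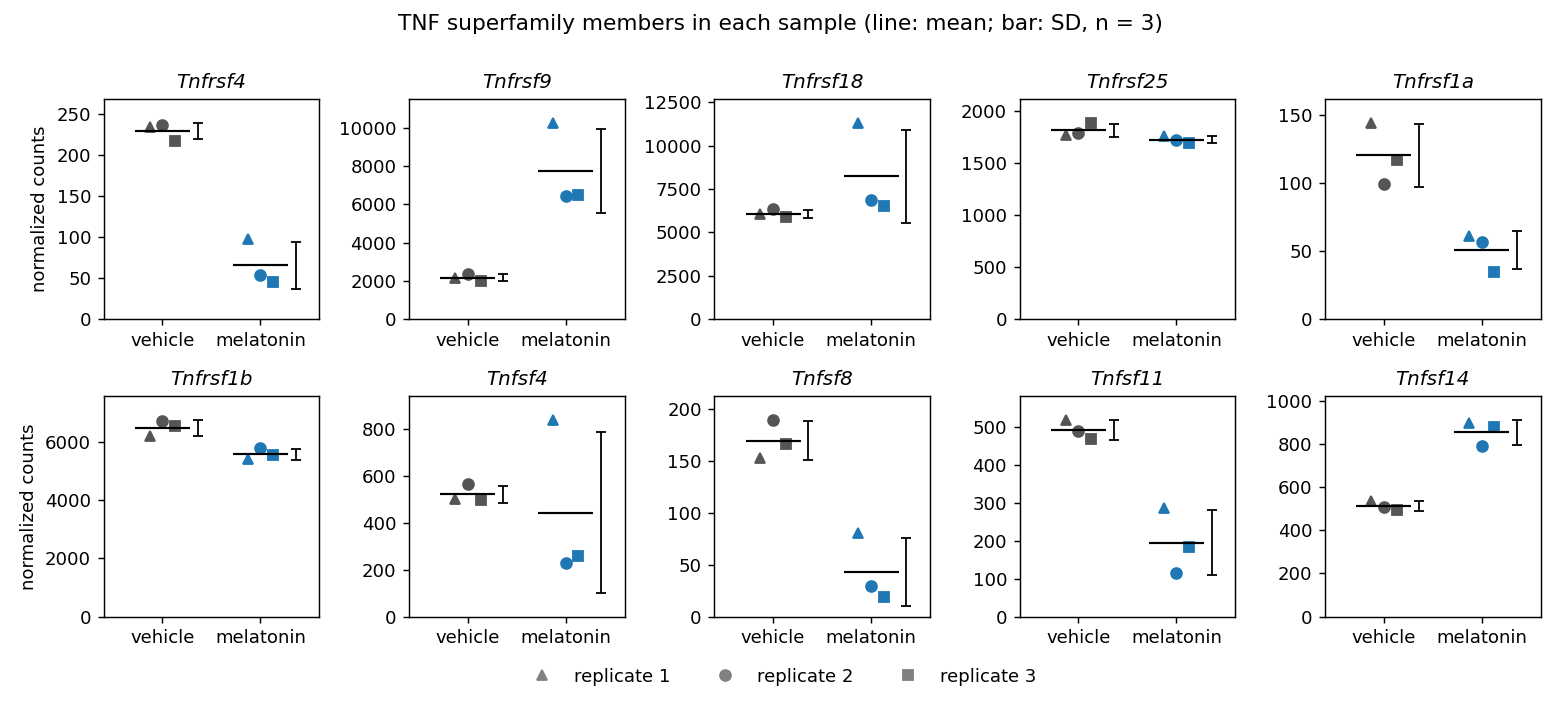
Normalized counts (vertical axes, starting at 0) of the 10 members in each of the 3 vehicle and 3 melatonin samples, with symbols for replicates, a line for the mean and a bar for the SD. *Tnfrsf9* and *Tnfsf14* were higher in every melatonin sample, *Tnfrsf4*, *Tnfsf8* and *Tnfsf11* lower in every one, and melatonin replicate 1 stood above replicates 2 and 3 in *Tnfrsf9*, *Tnfrsf18* and *Tnfsf4*.

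*Tnfrsf9* (ENSMUSG00000028965, chromosome 4 of GRCm39, 150999019 to 151030559, plus strand) encodes CD137, a co-stimulatory receptor that appears on lymphocytes after activation. It was at 2182, 2343 and 2007 normalized counts in vehicle replicates 1, 2 and 3, and at 10265, 6448 and 6472 in melatonin replicates 1, 2 and 3. Every melatonin sample was above every vehicle sample, and melatonin replicate 1 was the highest. The mean rose from 2178 ± 168 (SD, n = 3) to 7728 ± 2197 (log2 fold change 1.79, SE 0.17, adjusted p = 0.00011 by limma). It was 1.57 without melatonin replicate 1 and 2.24 in the libraries with Y-linked transcripts only. In bulk RNA, a change in the number of cells that express a gene and a change in RNA per cell cannot be told apart.
The 250 bases before the start of the canonical *Tnfrsf9* transcript are shown because this was the member with the largest rise, and they hold matches to 2 of the 4 motifs searched. These motifs, searched on both strands, were the NF-κB consensus of 10 bases, the AP-1 site TGANTCA, the core of the antioxidant response element TGACNNNGC, which can overlap an AP-1 site, and the E-box CACGTG. Capitals mark matches.
Tnfrsf9, GRCm39 chr4:151012206-151012455, plus strand: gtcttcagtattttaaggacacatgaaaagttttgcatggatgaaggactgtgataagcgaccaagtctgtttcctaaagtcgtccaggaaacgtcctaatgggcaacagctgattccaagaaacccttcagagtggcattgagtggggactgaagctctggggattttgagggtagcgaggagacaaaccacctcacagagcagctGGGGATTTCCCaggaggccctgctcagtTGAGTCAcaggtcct
The canonical start lies within the annotated gene, since other transcripts start further upstream. The NF-κB consensus matched at overlapping positions from -43 to -33 relative to the start, and AP-1 at -15 to -9. Of 21757 promoters of protein-coding genes of the same length, 7.63% held the NF-κB consensus, 6.18% AP-1, 9.70% the antioxidant element core and 6.26% the E-box. A match is a description of letters and does not show that a factor was bound.

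*Tnfrsf4* (ENSMUSG00000029075, chromosome 4, 156098293 to 156101069, plus strand) encodes OX40, the co-stimulatory receptor of OX40L. Its values were 233, 236 and 217 normalized counts in vehicle replicates 1, 2 and 3, and 98.0, 53.5 and 45.2 in melatonin replicates 1, 2 and 3. All melatonin samples were below the vehicle samples, replicate 1 by the least. The mean fell from 229 ± 10.2 (SD, n = 3) to 65.6 ± 28.4 (log2 fold change -1.87, SE 0.27, adjusted p = 0.00072 by limma). In the libraries with Y-linked transcripts only, the log2 fold change was -1.21. The promoter is shown as that of the receptor with the largest fall among the members. It held no match to the NF-κB, AP-1 or antioxidant motifs, which says only that these letters are not in this window, and 1 E-box, in capitals, at -215 to -210.
Tnfrsf4, GRCm39 chr4:156098043-156098292, plus strand: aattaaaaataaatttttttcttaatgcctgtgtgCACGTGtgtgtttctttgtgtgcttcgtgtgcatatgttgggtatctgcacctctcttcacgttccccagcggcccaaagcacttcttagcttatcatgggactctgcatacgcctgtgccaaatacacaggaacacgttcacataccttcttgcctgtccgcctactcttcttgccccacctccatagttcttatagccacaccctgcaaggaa

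*Tnfrsf18* (ENSMUSG00000041954, chromosome 4, 156110621 to 156113352, plus strand), which encodes GITR, lies 9551 bases beyond *Tnfrsf4* on the same strand. It did not share the fall of its neighbour. Vehicle replicates 1, 2 and 3 were at 6043, 6334 and 5876 normalized counts, and melatonin replicates 1, 2 and 3 at 11318, 6839 and 6513. The melatonin samples were all above the vehicle samples, but replicates 2 and 3 only narrowly. The log2 fold change was 0.39, with a 95% interval from -0.03 to 0.81 (limma adjusted p = 0.109). It was 0.13 without melatonin replicate 1 (limma adjusted p = 0.103), and 0.90 in the libraries with Y-linked transcripts only. It passed the threshold without melatonin replicate 3, at 0.53, under quantile normalization, at 0.53, and with a correction for transcript length, at 0.68 (adjusted p = 0.0457, 0.037 and 0.0326 by limma). A transcript on the opposite strand, *Gm16008*, overlaps both genes and had 51.3 to 78.2 normalized counts in vehicle and 97.7 to 160.4 in melatonin. No source states that counting used the strand, so reads of these genes and of *Gm16008* cannot be told apart where they overlap.

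*Tnfrsf25* (ENSMUSG00000024793, chromosome 4, 152200391 to 152205299, plus strand) encodes DR3, the death domain receptor of TL1A, a co-stimulator of ILC2s. Of the members it had the smallest fold change. Its values were 1772, 1791 and 1889 normalized counts in vehicle replicates 1, 2 and 3, and 1758, 1723 and 1694 in melatonin replicates 1, 2 and 3. The melatonin samples were all just below the vehicle samples. The log2 fold change was -0.07, with a 95% interval from -0.24 to 0.09 (limma adjusted p = 0.42), and between -0.12 and -0.04 under all alternatives. *Espn*, on the opposite strand, overlaps it and was at 395 to 433 normalized counts in vehicle and 438 to 496 in melatonin.

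The receptors of TNF itself both fell, by different amounts and from different levels. *Tnfrsf1a* (ENSMUSG00000030341, chromosome 6, 125325566 to 125339632, plus strand) encodes the death domain receptor TNFR1, which most cell types carry. It had 145, 99.3 and 118 normalized counts in vehicle replicates 1, 2 and 3, and 61.6, 56.8 and 35.2 in melatonin replicates 1, 2 and 3. The groups were well apart despite the low level. The log2 fold change was -1.24 (SE 0.26, adjusted p = 0.0046 by limma). *Tnfrsf1b* (ENSMUSG00000028599, chromosome 4, 144938938 to 144973477, minus strand) encodes TNFR2, which has no death domain and is found mainly on lymphocytes and other leukocytes. It was at 6186, 6722 and 6545 normalized counts in vehicle replicates 1, 2 and 3, and at 5409, 5786 and 5531 in melatonin replicates 1, 2 and 3. The fall was small (log2 fold change -0.22, SE 0.07, adjusted p = 0.034 by limma). The call was lost under 8 alternatives. Among them were the fits without vehicle replicate 1, 2 or 3 or melatonin replicate 3. Their limma adjusted p was 0.0603, 0.133, 0.101 and 0.0572 in this order, at log2 fold changes between -0.25 and -0.19. Quantile normalization gave -0.07, without the call, and the correction for transcript length gave -0.38, with it.

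Of the ligands among the members, *Tnfsf8* (ENSMUSG00000028362, chromosome 4, 63749542 to 63779592, minus strand) fell most. It encodes CD153, the ligand of CD30. Vehicle replicates 1, 2 and 3 had 152, 189 and 166 normalized counts, and melatonin replicates 1, 2 and 3 had 80.3, 29.5 and 19.1. The groups did not overlap, and melatonin replicate 1 lay between the others and vehicle. The mean fell from 169 ± 18.8 (SD, n = 3) to 43.0 ± 32.8 (log2 fold change -2.20, SE 0.44, adjusted p = 0.0036 by limma). Its size rested on replicates 2 and 3, since it was -1.06 in the libraries with Y-linked transcripts only and -2.77 without melatonin replicate 1. The gene of the receptor, *Tnfrsf8*, is not among the members but moved with it. *Tnfrsf8* was at 13604, 14124 and 14469 normalized counts in vehicle replicates 1, 2 and 3, and at 246, 3117 and 2965 in melatonin replicates 1, 2 and 3. There, melatonin replicate 1 was the lowest sample, and the log2 fold change was -3.42 (SE 0.81, adjusted p = 0.0081 by limma). It was -2.21 without melatonin replicate 1 and -5.83 in the libraries with Y-linked transcripts only.

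*Tnfsf11* (ENSMUSG00000022015, chromosome 14, 78514885 to 78545490, minus strand) encodes RANKL, known for driving osteoclast formation and lymph node development. It was at 518, 487 and 467 normalized counts in vehicle replicates 1, 2 and 3, and at 287, 115 and 183 in melatonin replicates 1, 2 and 3. The groups did not overlap, and the melatonin samples were spread over a wider range than the vehicle samples. The mean fell from 491 ± 25.7 (SD, n = 3) to 195 ± 86.6 (log2 fold change -1.43, SE 0.28, adjusted p = 0.0031 by limma). It was -0.77 in the libraries with Y-linked transcripts only and -1.75 without melatonin replicate 1. *Tnfrsf11a*, the gene of its receptor RANK, went the other way, from 340 ± 100.1 to 866 ± 146 normalized counts (log2 fold change 1.38, SE 0.22, adjusted p = 0.0012 by limma).

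*Tnfsf14* (ENSMUSG00000005824, chromosome 17, 57496451 to 57501177, minus strand) encodes LIGHT, the ligand of HVEM (*Tnfrsf14*) and of the lymphotoxin β receptor (*Ltbr*). It had 538, 511 and 494 normalized counts in vehicle replicates 1, 2 and 3, and 896, 790 and 882 in melatonin replicates 1, 2 and 3. The groups were well apart and the replicates of each close together. The mean rose from 514 ± 21.9 (SD, n = 3) to 856 ± 57.7 (log2 fold change 0.73, SE 0.10, adjusted p = 0.00045 by limma). It was 0.70 without melatonin replicate 1 and 0.80 in the libraries with Y-linked transcripts only. Both of its receptors were lower, *Ltbr* at -2.19 on the log2 scale (SE 0.26, adjusted p = 0.00031 by limma) from a vehicle mean of 68.9, and *Tnfrsf14* at -0.66 (SE 0.22, adjusted p = 0.034 by limma). The call of *Tnfrsf14* was lost without melatonin replicate 2 or vehicle replicate 1 or 3. In the libraries with Y-linked transcripts only, *Tnfrsf14* was at -0.51. The promoter of *Tnfsf14* is shown as that of the other member that rose. Its only match, in capitals, was to AP-1, at -164 to -158, the same letters as in *Tnfrsf9*.
Tnfsf14, GRCm39 chr17:57501178-57501427, minus strand: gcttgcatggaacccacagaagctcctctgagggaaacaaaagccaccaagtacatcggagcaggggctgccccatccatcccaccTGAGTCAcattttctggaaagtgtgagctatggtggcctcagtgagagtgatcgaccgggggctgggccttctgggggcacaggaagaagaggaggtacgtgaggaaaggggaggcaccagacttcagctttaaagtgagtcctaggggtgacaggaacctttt
Over the 10 members, AP-1 was in 2 promoters, and the NF-κB consensus, the antioxidant element core (in *Tnfrsf25*) and the E-box were each in 1.

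*Tnfsf4* (ENSMUSG00000026700, chromosome 1, 161222980 to 161245981, plus strand) encodes OX40L, which ILC2s use to co-stimulate T cells. It was the member in which the melatonin samples did not move together. Vehicle replicates 1, 2 and 3 were at 503, 565 and 498 normalized counts, while melatonin replicate 1 was at 840, and replicates 2 and 3 at 231 and 258. Replicate 1 was thus above all vehicle samples and the other two below them. Over all samples the log2 fold change was -0.50, with a 95% interval from -1.43 to 0.43 (limma adjusted p = 0.339). With sample weights in limma it was -0.91 and passed the threshold (limma adjusted p = 0.0129). It was -1.09 without melatonin replicate 1 (limma adjusted p = 0.0002) and 0.69 in the libraries with Y-linked transcripts only. The sign thus rests on which melatonin libraries are used. The receptor gene *Tnfrsf4*, in contrast, was lower in all 3.

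**Figure D2:**
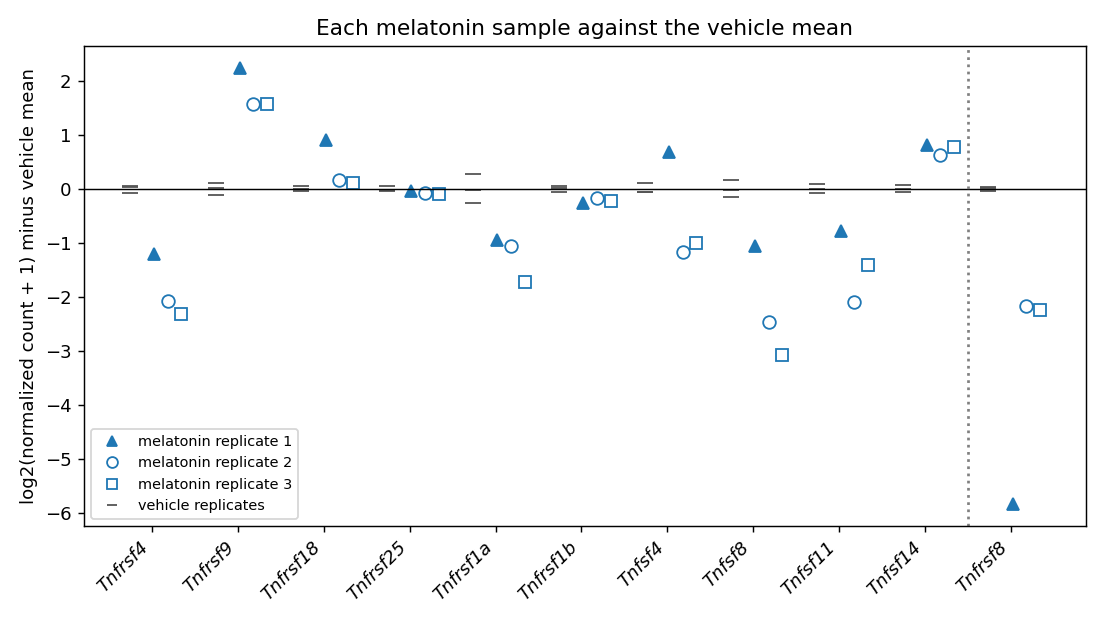
Difference of each sample from the vehicle mean on the log2(normalized count + 1) scale, for the 10 members and, right of the dotted line, *Tnfrsf8*. Melatonin replicate 1 (filled triangles) was the highest melatonin sample in 9 members, above the vehicle mean in *Tnfsf4* at 0.69 where replicates 2 and 3 were at -1.17 and -1.01, and the lowest in *Tnfrsf8* at -5.83.

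Melatonin replicate 1 was the highest of the 3 melatonin samples in 9 of the 10 members, all but *Tnfrsf1b*, and in 37.2% of all genes tested. The share was 55.6% in the other receptors, 57.1% in the other ligands, 64% in the adaptor list and 70% in the ILC2 markers. In *Tnfsf4* it was 3.44 times the mean of replicates 2 and 3, in *Tnfsf8* 3.30 times, in *Tnfrsf4* 1.99 times, in *Tnfsf11* 1.93 times, in *Tnfrsf18* 1.70 times and in *Tnfrsf9* 1.59 times. In *Tnfsf14*, *Tnfrsf25* and *Tnfrsf1b* the ratio was between 0.96 and 1.07. The median range over the melatonin samples was 0.79 on the log2 scale for the members and 0.38 for all genes tested, against 0.14 and 0.23 over the vehicle samples. For all genes with a mean of at least 100 these ranges were 0.29 and 0.16. This library differs from replicates 2 and 3 also by its Y-linked transcripts. Their part in the spread was not tested.

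Levels can be compared between genes only per length, here as normalized counts per kilobase of the longest coding transcript. In vehicle, *Tnfrsf18* was the most abundant member at 4844 ± 185 (SD, n = 3) per kilobase. *Tnfrsf1b* followed at 1320 ± 55.6, *Tnfrsf9* at 1014 ± 78.3 and *Tnfrsf25* at 762 ± 26.3, and none of these 4 overlapped its neighbour in the order. *Tnfsf4* at 283 ± 20.2 and *Tnfsf14* at 272 ± 11.6 overlapped each other, as did *Tnfrsf4* at 221 ± 9.86 and *Tnfsf11* at 219 ± 11.5, and *Tnfrsf1a* at 54.2 ± 10.3 and *Tnfsf8* at 44.3 ± 4.92. With melatonin, *Tnfrsf9* passed *Tnfrsf1b* and was second at 3598 ± 1023 per kilobase, behind *Tnfrsf18* at 6547 ± 2138. *Tnfrsf1b* at 1135 ± 39.2 and *Tnfrsf25* at 724 ± 13.5 followed, again without overlap. Below them, *Tnfsf14* at 453 ± 30.6, *Tnfsf4* at 241 ± 187, *Tnfsf11* at 86.8 ± 38.6 and *Tnfrsf4* at 63.3 ± 27.4 formed a chain in which neighbours overlapped, and so did the last pair, *Tnfrsf1a* at 23.0 ± 6.34 and *Tnfsf8* at 11.3 ± 8.58. With the union of exons in place of the transcript, the order of *Tnfrsf4* and *Tnfsf11* and that of *Tnfrsf1a* and *Tnfsf8* turned in vehicle, and no rank moved in melatonin. On the same scale, *Tnfrsf8* was at 4120 ± 128 per kilobase in vehicle and at 618 ± 473 with melatonin.

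**Figure D3:**
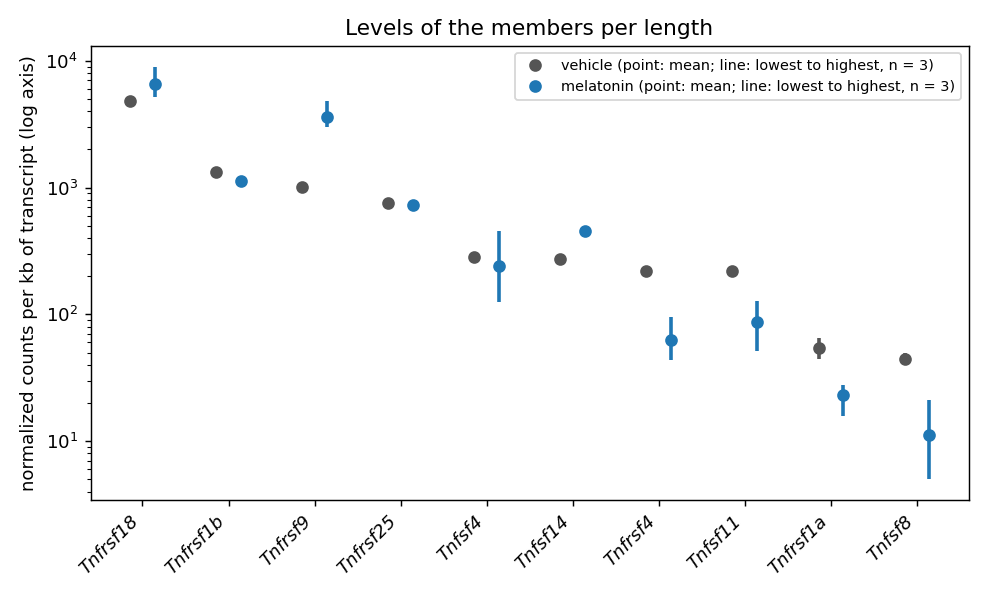
Normalized counts per kilobase of transcript (log axis) of the 10 members in the order of their vehicle means, with points for means and lines from the lowest to the highest of 3 samples. *Tnfrsf9* rose from 1014 to 3598 per kilobase, while *Tnfrsf4* fell from 221 to 63.3 and *Tnfsf8* from 44.3 to 11.3.

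The rest of the superfamily was covered by 22 other receptors and 14 other ligands. Of the receptors 18 had enough counts to be tested, and 6 were higher and 6 lower in limma, a share of 66.7% beside 49.2% of all genes tested. Among the higher ones were the decoy receptors for TRAIL, *Tnfrsf22* and *Tnfrsf23*, from 98.4 ± 12.6 to 317 ± 44.9 and from 29.3 ± 7.05 to 129 ± 24.4 normalized counts. Their log2 fold changes were 1.67 (limma adjusted p = 0.00015) and 2.12 (limma adjusted p = 0.00031), and their paralog *Tnfrsf26* was at 0.88, with 0.58 without melatonin replicate 1 and 1.49 in the libraries with Y-linked transcripts only. These 3 genes are similar in sequence, so the authors' algorithm may have divided reads among them and their single values are uncertain. *Tnfrsf11a*, described above, *Tnfrsf12a*, the receptor of TWEAK, at 0.89, and *Tnfrsf13b*, which encodes TACI, at 0.41, were the other 3. The call of *Tnfrsf13b* was lost without any one of 5 samples (all but melatonin replicate 3), and that of *Tnfrsf26* without vehicle replicate 2. Among the lower receptors were *Tnfrsf8*, *Ltbr* and *Tnfrsf14*, described above, and the co-stimulatory *Cd27*, with 28.0, 43.1 and 32.5 normalized counts in vehicle replicates 1, 2 and 3 and between 6.03 and 17.5 with melatonin. *Tnfrsf10b*, the receptor of TRAIL, was at -0.49 and lost its call without melatonin replicate 2, at -0.32, or any one vehicle sample. The call was also lost with the replicate block, and the log2 fold change was -0.36 in the libraries with Y-linked transcripts only. *Tnfrsf19* was never above 12.6 normalized counts. Its call was lost without melatonin replicate 2 or 3 or vehicle replicate 1 or 3, and under quantile normalization. Its log2 fold change was -2.42 over all samples and -0.93 in the libraries with Y-linked transcripts only. *Fas* was not called, at 0.36 with a 95% interval from -0.11 to 0.83, and was at 0.90 in the libraries with Y-linked transcripts only.

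Of the 14 other ligands, 7 were tested and 4 were lower, none higher, by limma, a share of 57.1% beside the same 49.2%. At an unadjusted p under 0.05, 5 of the 7 were lower and 0 higher, against 28.4% lower and 28% higher, together 56.4%, of all genes tested, and voom also called 0 higher. *Tnfsf10*, which encodes TRAIL, fell from 714 ± 98.7 to 392 ± 21.2 normalized counts (log2 fold change -0.85, SE 0.12, adjusted p = 0.00068 by limma). *Fasl* was at 26.1, 19.7 and 23.1 in vehicle replicates 1, 2 and 3 and at 0 in all melatonin samples. Taking 3 counts per library as the floor, it was at least 7.58-fold lower. *Tnfsf12*, the gene of TWEAK, was at 27.2, 18.1 and 32.1 in vehicle and between 2.80 and 4.02 with melatonin. *Tnf* was at -0.51 on the log2 scale (SE 0.18, adjusted p = 0.045 by limma). It no longer passed in the fits without vehicle replicate 1, 2 or 3 or melatonin replicate 2 or 3. In the libraries with Y-linked transcripts only, *Tnf* was at -0.20. *Lta* and *Tnfsf9*, the ligand of CD137, were not called, at -0.10 and -0.01, with 95% intervals from -0.43 to 0.24 and from -0.30 to 0.28. *Ltb* resembled *Tnfsf4* in that melatonin replicate 1, at 1812 normalized counts, stood above replicates 2 and 3, at 579 and 620. Vehicle was at 1497 to 1789, so replicate 1 was about level with vehicle in *Ltb*. *Ltb* was not called, at -0.89 with a 95% interval from -1.73 to -0.06 (limma adjusted p = 0.072).

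**Figure D4:**
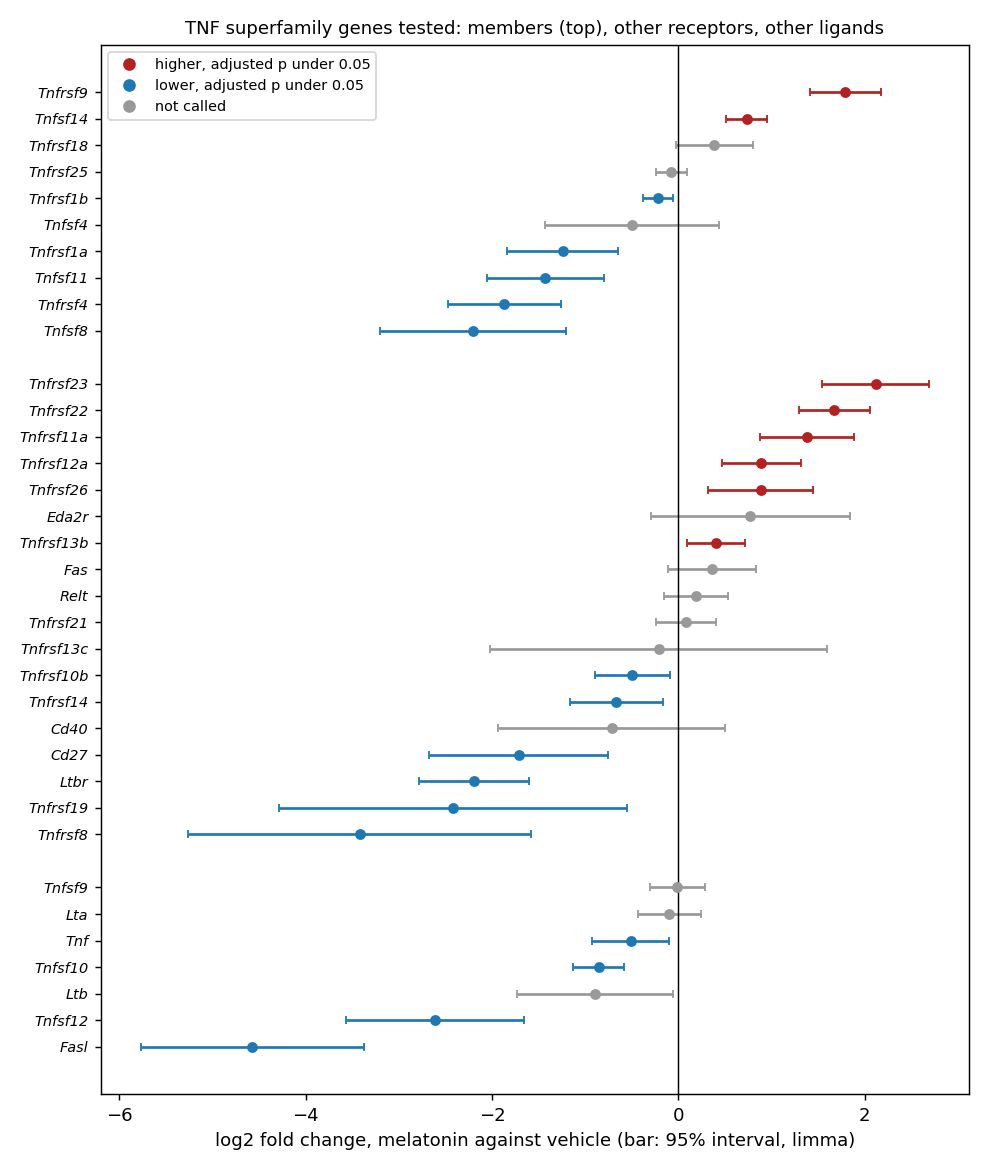
Log2 fold change of melatonin against vehicle with its 95% interval from limma for the 35 superfamily genes tested, in the blocks members, other receptors and other ligands, coloured by call; the value of *Fasl*, at 0 in all melatonin samples, depends on the pseudocount. Of these, 8 were higher and 15 lower, where 24.5% of all genes tested were higher and 24.7% lower. The interval of *Tnfsf4*, from -1.43 to 0.43, was the widest of the members that were not called.

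The adaptors and enzymes next to these receptors were given by a list of 25 genes, all tested. In limma, 5 were higher, 4 lower and 16 not called, a share of 36% called beside 49.2% of all genes tested. The median log2 fold change was 0.06. *Traf1*, a TRAF adaptor that CD137 binds, fell from 3928 ± 41.3 to 1781 ± 148 normalized counts (log2 fold change -1.14, SE 0.08, adjusted p = 3.3e-05 by limma), in every melatonin sample. *Map3k14*, which encodes the kinase NIK of the non-canonical NF-κB pathway, was at -0.70, *Traf3*, the adaptor that keeps NIK low, at -0.40, and *Cflar*, an inhibitor of caspase-8, at -0.37. *Cflar* lost its call without vehicle replicate 1, at -0.30, and was also at -0.30 in the libraries with Y-linked transcripts only. The largest rise was that of *Map3k7*, the gene of the kinase TAK1, from 1196 ± 246 to 2513 ± 319 (log2 fold change 1.08, SE 0.16, adjusted p = 0.0008 by limma). *Ripk1* and *Tradd*, which join TNFR1 to its signalling complex, were at 0.78 each, and *Birc2*, a ubiquitin ligase of that complex, at 0.51. *Traf2*, *Traf5* and *Traf6* were not called, at 0.29, 0.14 and 0.19.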

How the data were processed

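Reads were trimmed in Partek Flow by the authors, aligned with STAR to mm39 and quantified on the Gencode M33 annotation by an expectation-maximization method, Partek E/M, that can divide a read among genes. The methods state a filter on genes under 10 counts in all samples, but 1877 genes of the table (11.5%) stayed under 10 estimated counts in every sample, and the lowest sum over the samples was 10. The authors divided the counts by DESeq2 median ratio size factors. The deposited signal is therefore an estimated count over a size factor. At a tolerance of 0.01, 65.8% of values were whole multiples of the value of 1 read, so a count test was not used, although the study used DESeq2. The value of 1 read gave estimated counts, with 3 counts as the floor, which covers counting error only. Names, positions and lengths came from Gencode M39 (16334 of 16381 genes) and promoters from GRCm39, the same build as mm39.

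Groups were compared by limma 3.58.1, run in R 4.3.3 with lmFit and eBayes with trend, on log2(value + 1), which understates changes of low genes, with no covariate. The 14419 genes that reached 10 in any sample were tested. P-values were Benjamini-Hochberg adjusted over these genes, with a threshold of 0.05. The script was tested on simulated data. Alternatives were pseudocounts of 0.1 and 10, other filters, scalings, limma settings and thresholds, voom, the replicate block, a lowess correction for transcript length (span 0.3), each sample left out and the libraries with Y-linked transcripts only. Genes named were the members, the called genes among the other receptors and ligands, the 4 largest called rises and falls of the adaptor list and the leading marker of each list, while others named were chosen after their values were seen. The members and lists were chosen with earlier results of these data known. Differences between replicates exceeded counting noise for every pair, which does not show that they came from separate cells or animals. Tables were made with pandas 2.3.3 and numpy 2.4.6 and figures with matplotlib 3.10.9.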

Additional observations from a re-analysis of the deposited data

How the results depend on the processing

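Of the 10 members, 7 kept their direction and call under all 19 alternative fits that could be made for them, and *Tnfrsf18*, *Tnfrsf1b* and *Tnfsf4* did not. Over the 34 genes recomputed, 583 of 638 values kept call and direction, 48 lost the call, 6 gained it and 1 reversed. That one was *Tnfsf4*, at 0.69 in the libraries with Y-linked transcripts only. The cause was not tested. In those libraries *Tnfrsf18* was at 0.90 and the other ligand *Lta* at 0.29. The calls of that fit, included in the counts above, take the lone melatonin sample to vary like the vehicle samples. Scaling to the same total and sample weights in limma each gave 8 higher in the adaptor list, in place of 5. Over all genes they gave 3863 and 3835 higher, in place of 3529. A required log2 fold change of at least 1 left 1 member, 3 other receptors and 1 adaptor gene higher. It left 2 other ligands and 1 adaptor gene lower, and of the members *Tnfrsf4*, *Tnfrsf1a*, *Tnfsf8* and *Tnfsf11*. Of the other receptors, *Tnfrsf8*, *Cd27*, *Tnfrsf19* and *Ltbr* stayed lower. No share of all genes at that threshold stands beside these counts. Where a mean of 100 was required, 2 other receptors and 2 other ligands were lower, from fewer genes tested. Over all genes, 2667 of 9990 were lower there. At an adjusted p under 0.01, 3 other receptors were lower, also without a share of all genes beside them. With each sample left out in turn, members called higher ranged from 2 to 3 and members called lower from 4 to 6. Other receptors called higher ranged from 4 to 6 and lower from 3 to 6. The low of 3 was without melatonin replicate 2, vehicle replicate 1 or vehicle replicate 3. Other ligands called lower ranged from 3 to 6, and adaptor genes called higher from 5 to 7 and lower from 4 to 5. Over all genes, these fits called from 2747 to 3454 higher and from 2708 to 3619 lower, of 14247 to 14342 tested.

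Vehicle and melatonin samples share replicate numbers 1 to 3, but their deviations from the group means correlated by -0.05, 0.01 and -0.05 across genes for same-numbered samples, so the numbers were not taken as pairs. With the replicate number as a block, 3160 genes were higher and 3278 lower, in place of 3529 and 3565, and *Tnfrsf1b* had a limma adjusted p of 0.0559. The members lie well above the floor, with *Tnfsf8* lowest at 19 estimated counts in melatonin replicate 3.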
